A study of Sinocyclocheilus angustiporus and Sinocyclocheilus anophthalmus with 4 samples.

Results

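Genes that move membrane between compartments of the cell were compared between the eye of a surface fish and the eye of a cavefish. The set held every row of the 2 eye tables whose name begins with RAB in capitals, or contains vacuolar protein sorting, coatomer, sorting nexin, clathrin, adaptor-related protein complex, trafficking protein particle, exocyst, or SEC with a number. This rule took 176 of 9585 different names (9649 rows per table), each member standing on 1 row, and it used names only and no measured value. The surface fish was Sinocyclocheilus angustiporus and the cavefish Sinocyclocheilus anophthalmus, carp relatives from China, both adult, with no treatment or engineered allele named. RNA came from whole eyes, and each group was 1 library; the labels mention 2 individuals of each species without saying whether a library pooled them. With 1 library a group, differences could not be checked against replicates, so no p-value or spread over animals stands beside them. Brain libraries of both species, labelled in the same series, were not analysed here.

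RAB proteins are small GTPases that switch between a GTP-bound form on a membrane and a GDP-bound form in the cytosol, and each marks certain compartments and recruits motors, tethers and sorting factors there. Coats bend membrane into vesicles and choose the cargo: COPII leaves the endoplasmic reticulum (ER), COPI returns from the Golgi, and clathrin with its adaptors works at the plasma membrane, the Golgi and endosomes. Sorting nexins, retromer and the ESCRT complexes then decide whether a protein in an endosome is recycled or sent to the lysosome, while HOPS, GARP, TRAPP and the exocyst tether vesicles to their target. In the retina this traffic carries rhodopsin to the photoreceptor outer segment and recycles synaptic vesicles, and in pigment cells it builds melanosomes.

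The authors deposited RPKM, which scale reads to transcript length and library size, so that levels of different genes can be compared per length. How many reads lie behind each value, the depth, is unknown. The log2 ratio of a gene is log2 of its cavefish RPKM + 1 over its surface fish RPKM + 1, and a gene at 1 or above, or at -1 or below, is called at least 2-fold higher or lower. Where a pair of levels is given the surface fish comes first, and a value in brackets after levels is the log2 ratio. All genes together had a median log2 ratio of -0.27, so a member at that value stood where the middle gene of the table stood; centring the ratios on their median brings it to 0. Of the members, 36 had a log2 ratio between -0.31 and -0.01 whose sign changed under at least 1 of 4 other scalings, and the sign of the other 140 was kept under all 4. Only genes reaching 5 RPKM in at least 1 eye are in the tables. For that reason 7 members (3.98%, against 6.44% of all genes) are listed only through their cavefish value. Another 17 (9.66%, against 13.6% of all genes) are listed only through their surface fish value. Members are described by short names made from the deposited names.

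Markers of several tissues differed between the eyes. All 16 matched of 17 listed photoreceptor markers had a negative log2 ratio, 14 of them at least 2-fold lower, and their summed level was 23412 RPKM in the surface fish eye against 7938 RPKM in the cavefish eye. Epithelial markers (7 of 7 matched) summed to 1175 and 267.9 RPKM, and erythrocyte markers (5 of 5) to 1686 and 504.1 RPKM. Muscle markers (6 of 7) summed to 737.5 and 2139 RPKM, lens markers (8 of 10) to 7675 and 7999 RPKM, inner retinal neuron markers (4 of 6) to 538.2 and 386.2 RPKM, and pigment cell markers (7 of 10) to 452.0 and 452.3 RPKM. Such sums follow the most abundant markers. Log2 ratios were above 0 for 6 of 8 lens, 3 of 4 inner neuron and 5 of 7 pigment cell markers. At least 2-fold higher were 6 of 6 muscle, 3 of 8 lens and 1 of 7 pigment cell markers, where 3.84% of all genes were. At least 2-fold lower were 4 of 5 erythrocyte and 4 of 7 epithelial markers, where 10.2% of all genes were. The inner neuron marker below 0 was gad1b, at 444.8 and 271.1 RPKM. No marker was listed at 0. In such whole tissue, fewer cells of a type and less RNA per cell cannot be told apart, and what part these markers have in the values below was not tested.

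Traffic genes as a set stood close to the rest of the table. In the cavefish eye 15 of 176 members were at least 2-fold lower and 3 were at least 2-fold higher, and 158 lay within 2-fold. That is 8.52% lower, where 10.2% of all genes were, and 1.70% higher, where 3.84% of all genes were. Neither share exceeded its background. The median log2 ratio of the members was -0.35, with the middle 50% of members between -0.59 and -0.07. Over all genes the median was -0.27, and the middle 50% lay between -0.62 and 0.11. A total of 105 of 176 members (59.7%) lay below the median of all genes. With ratios centred on that median, 6 members were at least 2-fold lower and 4 higher, against a background of 5.55% and 6.76%. The higher ones were then SEC61 beta, AP1 sigma 1, AP1 mu 2 and RAB34 a, and the lower ones SNX19a, VPS36, SEC14-like 3, SNX14, VPS37A and RAB11A-like. The other 9 members that were at least 2-fold lower as deposited came under 2-fold in each of the 4 other scalings.

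The functional groups were spread around the median of all genes. ESCRT genes had the lowest median, -0.74, and translocon genes the highest, 0.01. Medians of 16 of 17 groups were below 0, and with centred ratios this held for 12 of 17. In the plot of ratios by functional group, most members fall between the 2-fold lines and the extremes come from a few genes in each group.

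**Figure D1:**
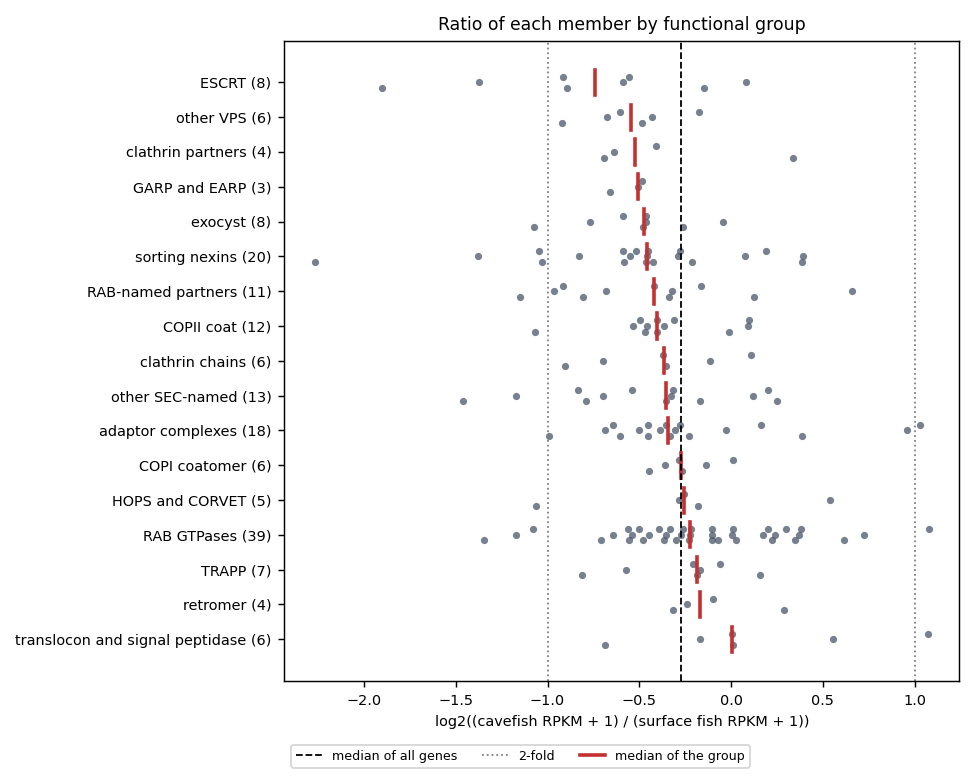
Log2 ratio of the cavefish over the surface fish eye (x axis, log2 of RPKM + 1) for each of 176 members, in rows by functional group with the number of members in brackets. Points are genes, red bars group medians, the dashed line the median of all genes (-0.27) and dotted lines 2-fold; the ESCRT median of -0.74 and the translocon median of 0.01 are the ends of the range.

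Levels spread over a wide range in both eyes. Of 176 members, 121 were under 20 RPKM in the surface fish eye against 137 in the cavefish eye, while 17 and 13 reached 50 RPKM. The order of levels was much alike: across members the Pearson coefficient of log2(RPKM + 1) between the eyes was 0.89 and the Spearman coefficient 0.86. Over all genes these coefficients were 0.87 and 0.81; genes are not independent replicates. The 10 members with the highest mean held 25.5% of the members' summed RPKM in the surface fish eye against 26.3% in the cavefish eye. They were RAB5A a, RAB2A, clathrin light chain a, RAB5C, RAB1B, AP3 delta 1, RAB7, VPS13B, VPS13C and AP2 mu 1a, which together span the early and late endosome, the ER to Golgi step, clathrin coats and lipid transfer. All 10 were within 2-fold. Clathrin light chain a had the largest difference among them: it ranked second among members in the surface fish eye against 7 in the cavefish eye.

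RAB GTPases formed the largest group, with 39 members. Of these 3 were at least 2-fold lower (7.69%, against 10.2% of all genes) and 1 higher (2.56%, against 3.84%), neither share above its background. The median log2 ratio was -0.23, close to the -0.27 of all genes; with centred ratios it was 0.04. Their summed level was 1147 RPKM in the surface fish eye against 999 RPKM in the cavefish eye. Of the 39, 16 lay below the median of all genes.

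Among RABs of the ER and Golgi, RAB2A, which acts between these compartments, was at 108 RPKM in the eye of the surface fish and 89.7 RPKM in that of the cavefish. RAB1B, needed for ER to Golgi transport, was found at 91.96 and 78.2 RPKM, and its paralog RAB1A at 25.3 and 16.9 RPKM. RAB6A, a Golgi RAB that has a role in rhodopsin transport in fly photoreceptors, was measured at 47.3 and 33.04 RPKM (-0.50), whereas its paralog RAB6B a, in mammals found mainly in neurons, was at 19.4 and 25.3 RPKM (0.37). All 7 members of this class were within 2-fold, and their median was -0.23. The remaining pair, RAB18A of the ER and lipid droplets and the Golgi RAB RAB43, was found at 13.2 and 12.2 RPKM and at 13.3 and 13.6 RPKM.

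The most abundant member of all was an endosomal RAB. RAB5A a, which organises early endosomes, was measured at 129.8 RPKM in the eye of the surface fish and 149 RPKM in that of the cavefish, the highest value of any member in either eye. The other RAB5 genes lay lower: RAB5C at 105 and 79.8 RPKM, RAB5A b at 26.7 and 19.3 RPKM and RAB5B at 23.9 and 14.9 RPKM (-0.64). RAB21, a relative of RAB5 involved in integrin uptake, was at 63.8 and 38.7 RPKM (-0.71). RAB5A a was thus slightly higher in the cavefish eye and the other 3 RAB5 genes and RAB21 lower, all within 2-fold. For the late endosome, RAB7 was found at 71.4 and 80.8 RPKM and the row named RAB7A at 34.1 and 29.1 RPKM. RAB9B, of transport from late endosomes to the Golgi, was measured at 7.16 and 4.62 RPKM and is listed through its surface fish value. RAB22A and RAB35, endosomal RABs listed only through the cavefish eye, were at 4.0 and 6.66 RPKM and at 4.72 and 6.28 RPKM.

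Both endosomal RABs past 2-fold belong to recycling. RAB4B, of fast recycling from early endosomes, was found at 19.9 RPKM in the eye of the surface fish and 8.29 RPKM in that of the cavefish, for a log2 ratio of -1.17; its paralog RAB4A was measured at 10.3 and 7.81 RPKM (-0.35). RAB4B came to -0.92 to -0.90 under the other scalings, short of 2-fold. RAB11A, which marks recycling endosomes and in vertebrate rods has a role in rhodopsin delivery, was at 37.3 and 44.2 RPKM (0.24). A second row named as a RAB11A-like gene was found at 11.2 and 3.79 RPKM, for a log2 ratio of -1.35, with -1.13 to -1.08 under the other scalings, and is listed through its surface fish value only. With a pseudocount of 5 this row came to -0.88, short of 2-fold. RAB11B was measured at 9.52 and 9.02 RPKM and RAB11B a at 33.1 and 26.7 RPKM. RAB11A and its like row summed to 48.5 and 47.98 RPKM (-0.02). Their total was thus nearly the same in both eyes as deposited, and stood above the median of all genes.

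RABs of secretion were all within 2-fold, with a median of -0.05 over 8 genes, and 1 of the 8 lay below the median of all genes. This was RAB10, which directs basolateral and GLUT4 vesicles in mammals, at 72.2 RPKM in the eye of the surface fish and 48.5 RPKM in that of the cavefish (-0.56). RAB8A, which with RAB11 carries cargo to cilia, was at 10.4 and 8.54 RPKM and its paralog RAB8B at 18.8 and 23.3 RPKM (0.30). The synaptic vesicle RABs RAB3A b and RAB3C were found at 15.5 and 13.1 RPKM and at 4.76 and 5.73 RPKM, and RAB3D b, a RAB of secretory granules, at 5.12 and 6.98 RPKM. RAB3C is listed only through the cavefish eye. Another row named for RAB3C, which the rule does not take for its wording, went the other way, at 6.37 and 2.94 RPKM (-0.90). RAB3A b was above 0 in the other scalings. All 8 were within 2-fold where photoreceptor markers summed to 33.9% of their surface fish level; the part of those markers was not tested.

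RABs known from melanosomes were near level or higher in the cavefish eye. RAB27A, which ties melanosomes to actin in mammals, was measured at 21.8 RPKM in the eye of the surface fish and 20.2 RPKM in that of the cavefish, for a log2 ratio of -0.11 that is above 0 in the other scalings, and RAB27B at 8.73 and 8.78 RPKM. RAB38, which brings melanin enzymes to the melanosome, was at 8.47 and 8.52 RPKM (0.01). RAB32A, its partner in that route, was found at 3.73 and 6.80 RPKM (0.72; 0.91 to 0.99 under the other scalings) and is listed only through the cavefish eye. The pigment cell markers summed to 452.0 and 452.3 RPKM beside them, with 1 of 7 at least 2-fold higher and none lower. No row was matched by name for RAB28, RAB14, VPS11, SEC24D or AP3 beta 1, and these are not analysed here.

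The largest contrast among RABs was between the copies of RAB34, a Golgi RAB that in mouse is needed to form some primary cilia. RAB34 a was measured at 2.04 RPKM in the eye of the surface fish and 5.41 RPKM in that of the cavefish, for a log2 ratio of 1.08, and RAB34 b at 16.3 and 7.21 RPKM, for a log2 ratio of -1.08. RAB34 a held 11.1% of the summed RPKM of both copies in the surface fish eye against 42.9% in the cavefish eye. RAB34 a had the lowest value of any member in the surface fish eye and enters the tables by its cavefish value alone. RAB34 b came to -0.84 to -0.81 under the other scalings, while RAB34 a stayed past 2-fold there but came to 0.56 with a pseudocount of 5. RAB12, RAB40B, RAB40C and RABL2 were within 2-fold, between -0.48 for RAB40C, a RAB that joins ubiquitin ligases, and -0.10 for RAB40B.

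**Figure D2:**
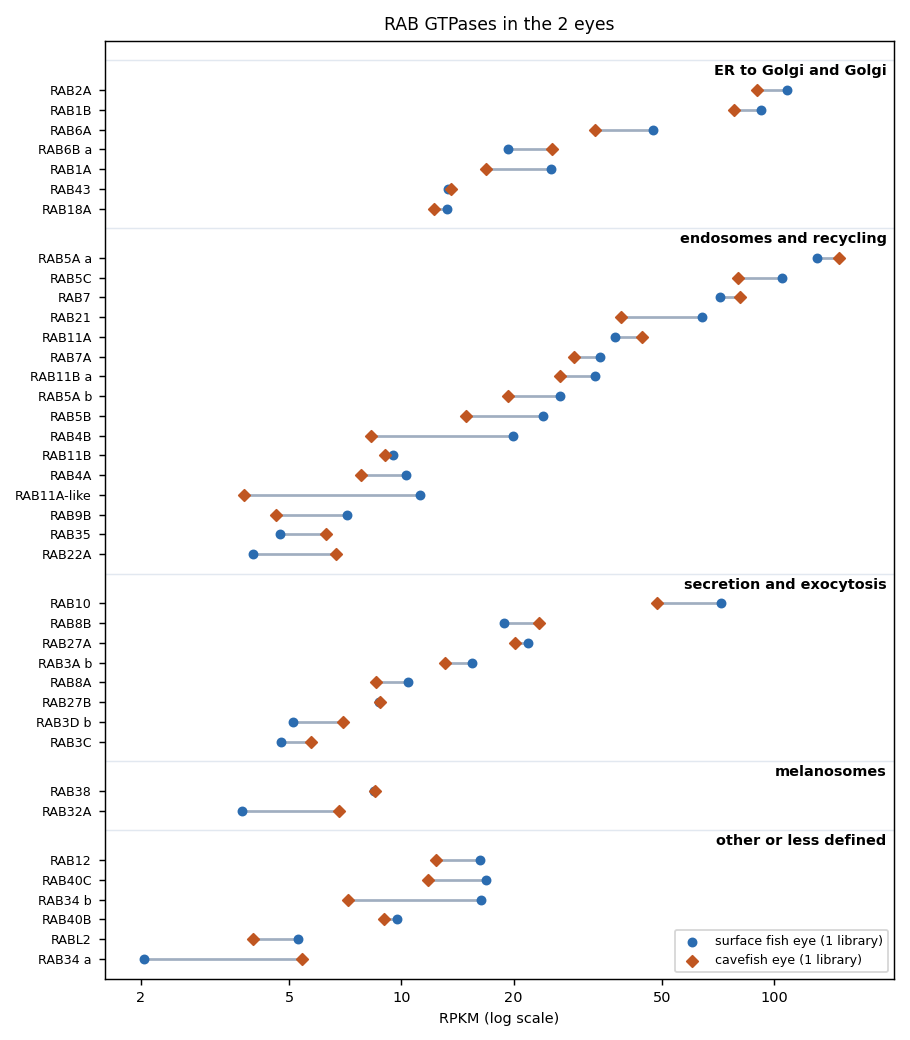
Levels of the 39 RAB GTPases in RPKM (log x axis) in the surface fish eye (circles) and the cavefish eye (diamonds), 1 library each, grouped by the compartment they are known to serve. RAB5A a has the highest values, 129.8 and 149 RPKM, and the longest lines belong to RAB34 a, RAB11A-like, RAB4B and RAB34 b.

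Proteins that load or unload RABs, or bind them, had a median of -0.42 over 11 rows named RAB (centred -0.15), and 8 lay below the median of all genes. The 2 subunits of the RAB3 GTPase activating complex, which also switches on RAB18, lay on the same side: RAB3GAP2, the non-catalytic subunit, was at 10.8 RPKM in the eye of the surface fish and 4.33 RPKM in that of the cavefish (-1.15), and the catalytic RAB3GAP1 at 20.4 and 12.3 RPKM (-0.68). RAB3GAP2 was at least 2-fold lower, listed through its surface fish value, and came to -0.93 to -0.88 under the other scalings. RABGEF1, which activates RAB5, was found at 24.4 and 12.4 RPKM (-0.92) and its like row at 15.3 and 12 RPKM. RABIN3, which activates RAB8 at the base of cilia in mammalian cells, was measured at 7.95 and 4.11 RPKM (-0.81), listed through its surface fish value. Of the RAB11 family interacting proteins, RAB11FIP4b was at 17.2 and 8.31 RPKM (-0.97) and its copy RAB11FIP4a at 18.4 and 20.2 RPKM (0.13). RABIF, a small RAB-binding chaperone, had the highest ratio, at 4.92 and 8.35 RPKM (0.66), listed only through the cavefish eye. The remaining rows, RAB11FIP3, RABGAP1 and RABGAP1-like, were between -0.42 and -0.16. Rows in other case or wording, which the rule does not take, included a RAB5 exchange factor at 35.7 and 16.5 RPKM (-1.07). A row named RAB3A interacting protein was at 14.15 and 8.23 RPKM (-0.71), and another for RAB11FIP3 at 5.21 and 6.60 RPKM (0.29). The highest ratio of these rows was that of an ELKS and RAB6-interacting row, at 6.32 and 12.7 RPKM (0.90). Next came a row named RAB3A interacting 1, at 27.7 and 44.9 RPKM (0.68). Of 20 such rows 15 lay below 0 (75%, against 68.8% of all genes) and 5 above. At least 2-fold lower was 1 of them (5%, against 10.2% of all genes) and none was higher (against 3.84%).

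Clathrin chains had a median of -0.36 over 6 rows (centred -0.09), with 5 rows below 0 and 1 above. Of the 6, 4 lay below the median of all genes. Clathrin light chain a, which regulates assembly of the coat, was found at 129 RPKM in the eye of the surface fish and 68.2 RPKM in that of the cavefish, for a log2 ratio of -0.91, the lowest ratio among the 6 clathrin rows. The other light chain row was measured at 12.3 and 9.39 RPKM (-0.36). Heavy chains build the legs of the clathrin lattice and were on 4 rows. The row named heavy chain-like 1 was at 34.1 and 36.8 RPKM (0.11), heavy polypeptide b at 28.4 and 17.2 RPKM (-0.70), heavy polypeptide a at 12.9 and 9.75 RPKM, and the row named only heavy chain at 6.60 and 6.03 RPKM. The light chain rows summed to 141.0 and 77.6 RPKM and the heavy chain rows to 82.1 and 69.8 RPKM. No clathrin row was past 2-fold. Of the clathrin assembly proteins that gather membrane lipid and coat, PICALM was found at 22.4 and 28.6 RPKM (0.34), and its like rows at 42.6 and 27 RPKM and at 27.4 and 16.6 RPKM (-0.64 and -0.69). SCLT1, a centriole protein that the rule takes for its name, was measured at 5.16 and 3.63 RPKM.

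Adaptor complexes link cargo to coats, and their 18 rows had a median of -0.34 (centred -0.07). Of these rows 1 was at least 2-fold higher (5.56%, against 3.84% of all genes) and none lower (against 10.2% of all genes). For AP2, the adaptor of endocytosis at the plasma membrane, the 5 rows ranged from -0.64 to -0.28 and summed to 252.4 and 185.5 RPKM. AP2 mu 1a, the subunit that reads tyrosine sorting signals, was at 80.4 and 56.5 RPKM, AP2 sigma 1 at 70.1 and 57.7 RPKM and AP2 alpha 1 at 53.6 and 33.9 RPKM (-0.64). The 4 rows of AP3, which sorts cargo to lysosomes and melanosomes, ranged from -0.35 to -0.03. A row for AP3 sigma 1, which the rule does not take for its wording, was lower, at 9.91 and 4.61 RPKM (-0.96). AP3 delta 1 was found at 82.8 and 81.1 RPKM (-0.03), nearly level as deposited and above 0 in the other scalings, and ranked 8 among members in the surface fish eye against 3 in the cavefish eye.

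AP1, the adaptor of the Golgi and of endosomes, had members at both ends. AP1 sigma 1 was measured at 11.4 RPKM in the eye of the surface fish and 24.3 RPKM in that of the cavefish, for a log2 ratio of 1.03, and AP1 mu 2 at 12.3 and 24.8 RPKM, for a log2 ratio of 0.96. AP1 mu 2 is the form of the mu subunit found in epithelial cells of mammals. Its counterpart AP1 mu 1 was at 17.02 and 12.8 RPKM (-0.39), so that AP1 mu 2 was 41.9% of the summed mu RPKM in the surface fish eye against 66.01% in the cavefish eye. The 7 epithelial markers all had negative log2 ratios, and 6 of them lay below the median of all genes. At least 2-fold lower were 4 of the 7, where 10.2% of all genes were. What part epithelial cells have in the AP1 mu 2 values was not tested. The large subunits of AP1 were on the other side as well: AP1 beta 1 was found at 23.4 and 11.3 RPKM (-0.99), just within 2-fold, and AP1 gamma 1 at 20.5 and 12.4 RPKM (-0.68). The 6 rows of AP1 summed to 94.4 and 98.6 RPKM. Under the other scalings AP1 sigma 1 came to 1.29 to 1.30 and AP1 mu 2 to 1.22 to 1.25, both past 2-fold, whereas with a pseudocount of 5 AP1 sigma 1 came to 0.84. AP1 sigma 2 was measured at 9.76 and 13.1 RPKM (0.38). A row named AP1 sigma 2-like, which the rule does not take for its wording, went the other way, at 8.2 and 6.58 RPKM (-0.28). AP4 sigma 1 was at 5.05 and 5.77 RPKM, and 2 sigma rows without a complex number at 12.4 and 7.84 RPKM and at 17.3 and 12.4 RPKM.

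**Figure D3:**
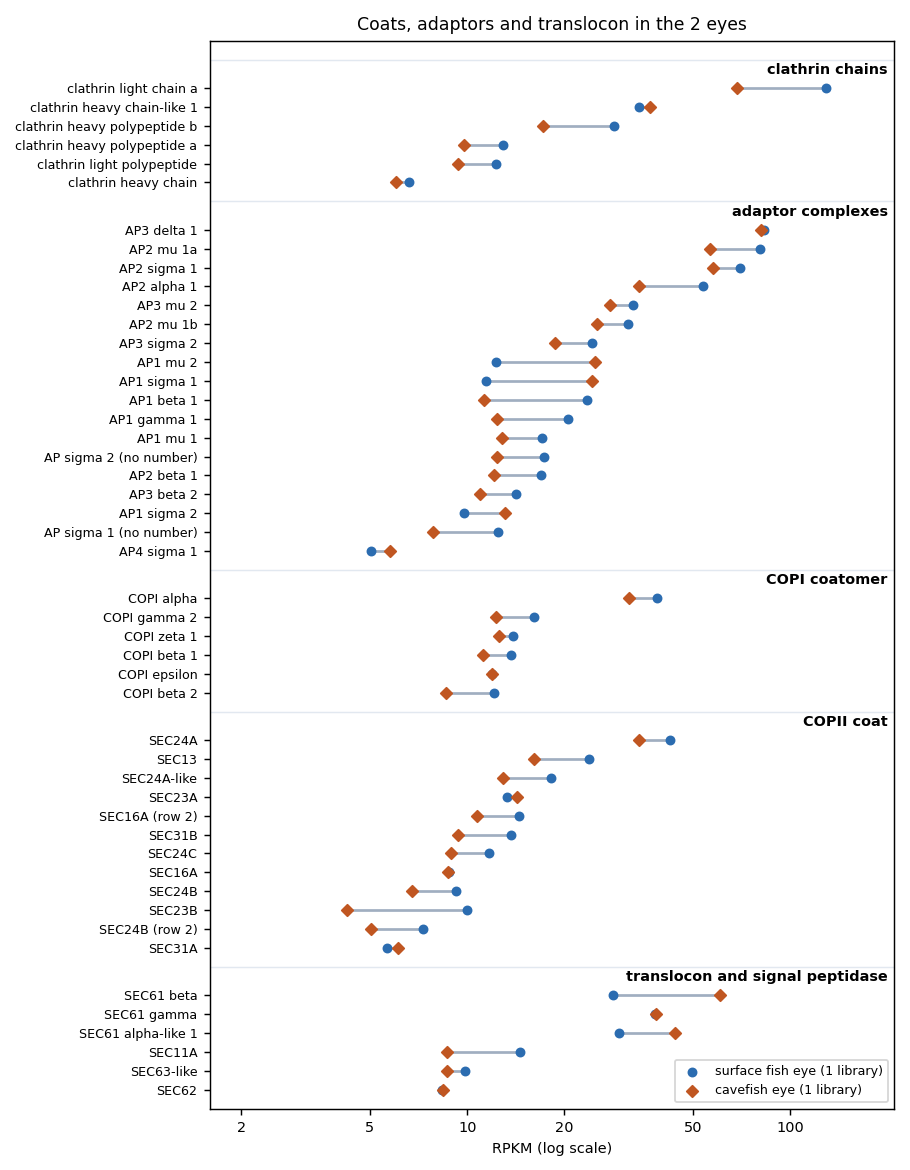
Levels in RPKM (log x axis) of clathrin chains, adaptor complexes, COPI, COPII and the translocon in the surface fish eye (circles) and the cavefish eye (diamonds), 1 library each. Diamonds lie to the right of circles for SEC61 beta, SEC61 alpha-like 1, AP1 sigma 1 and AP1 mu 2, and farthest to the left for SEC23B, AP1 beta 1 and clathrin light chain a.

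COPI, the coat of Golgi to ER transport, stood where the middle gene of the table stood. Its 6 rows had a median of -0.28 and ranged from -0.45 for COPI beta 2 to 0.01 for COPI epsilon. COPI alpha, the most abundant, was at 38.7 and 31.6 RPKM. The range of COPI was the smallest of any group with 6 or more rows, while the 3 rows of GARP and EARP spanned less (-0.66 to -0.48).

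COPII, which buds from the ER, had a median of -0.41 over 12 rows (centred -0.13). Only 1 row was past 2-fold, a lower one (8.33%, against 10.2% of all genes). SEC23B, an inner coat subunit that with SAR1 captures cargo, was found at 10.02 RPKM in the eye of the surface fish and 4.25 RPKM in that of the cavefish (-1.07), while its paralog SEC23A was measured at 13.2 and 14.2 RPKM (0.10). SEC23A held 56.9% of their sum in the surface fish eye against 76.98% in the cavefish eye. SEC23B is listed through its surface fish value and came to -0.84 to -0.80 under the other scalings. The cargo-binding SEC24 genes were on 5 rows with log2 ratios in a narrow range, -0.47 to -0.31. SEC24A and SEC24B each had a second row under their gene name, so the 5 rows are no independent values. SEC24A, the most abundant, was at 42.4 and 33.96 RPKM. Of the outer coat, SEC13 was found at 23.8 and 16.1 RPKM (-0.54), SEC31B at 13.6 and 9.36 RPKM and SEC31A at 5.66 and 6.10 RPKM (0.09), and the ER exit site scaffold SEC16A at 14.5 and 10.7 RPKM on 1 row and 8.77 and 8.71 RPKM on another.

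The translocon, through which new secretory and membrane proteins enter the ER, was the group with the highest median, 0.01 (centred 0.28). SEC61 beta was measured at 28.3 RPKM in the eye of the surface fish and 60.6 RPKM in that of the cavefish, for a log2 ratio of 1.07, and was 1 of the 3 members at least 2-fold higher. SEC61 alpha-like 1, a row for the channel itself, was at 29.6 and 43.9 RPKM (0.55), and SEC61 gamma at 38.3 and 38.4 RPKM (0.00). The 3 SEC61 rows summed to 96.1 and 142.8 RPKM, and SEC61 beta ranked 36 among members in the surface fish eye against 8 in the cavefish eye. SEC62 was found at 8.34 and 8.39 RPKM and SEC63-like at 9.85 and 8.65 RPKM, partners in translocation after synthesis. SEC11A, a subunit of the signal peptidase, was measured at 14.5 and 8.65 RPKM (-0.69). SEC61 beta was past 2-fold in each of the 4 other scalings, at 1.34 to 1.39, and at 0.98 with a pseudocount of 5.

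Other names with SEC and a number belong to several families. SEC14-like 3, a lipid transfer protein of the CRAL-TRIO type, was at 45.1 RPKM in the eye of the surface fish and 15.8 RPKM in that of the cavefish, for a log2 ratio of -1.46 (-1.20 to -1.15 under the other scalings), while SEC14-like 1 was found at 7.77 and 8.51 RPKM. The ARF activators with a SEC7 domain included 4 rows named for IQSEC3, a protein of inhibitory synapses in mammals; they ranged from -1.17 to -0.54 and summed to 49.9 and 25.8 RPKM. The row past 2-fold was measured at 19.7 and 8.19 RPKM. Another, at 8.41 and 4.81 RPKM, is listed through its surface fish value only. The 4 rows may be parts of 1 gene, so they are no independent values and their sum may not be the level of a gene. IQSEC2-like was at 12.6 and 6.86 RPKM (-0.79) and IQSEC1 at 16.9 and 13.2 RPKM (-0.33). SEC22Bb, a SNARE between ER and Golgi, was found at 15.1 and 13.4 RPKM and its copy SEC22Ba at 5.80 and 4.47 RPKM. SEC23IP, SESTD1 and PSD3-like were between -0.35 and 0.25.

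TRAPP, a tether that also activates RAB1, had a median of -0.18 over 7 rows (centred 0.09), and none was past 2-fold. TRAPPC1 had the lowest log2 ratio, -0.81, at 14.99 and 8.09 RPKM, and TRAPPC2 the highest, 0.16, at 18.9 and 21.2 RPKM. The other 5 subunits were between -0.58 and -0.06. The exocyst, which tethers vesicles to the plasma membrane and in zebrafish is needed for photoreceptor outer segments, had a median of -0.47 over 8 rows (centred -0.20), with 6 below the median of all genes. EXOC7, which binds membrane lipid, was measured at 28.7 RPKM in the eye of the surface fish and 13.1 RPKM in that of the cavefish (-1.07; -0.82 to -0.78 under the other scalings). EXOC6B was at 28.4 and 18.5 RPKM, EXOC2 at 9.76 and 5.32 RPKM (-0.77) and EXOC5 at 5.30 and 3.56 RPKM (-0.47). EXOC5 is listed through its surface fish value only. EXOC3 had the highest ratio, -0.04, at 18.7 and 18.2 RPKM, and was above 0 in the other scalings.

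Sorting nexins, which bind endosomal lipids through a PX domain, held the lowest ratio of all members. SNX19a was found at 22.9 RPKM in the eye of the surface fish and 3.96 RPKM in that of the cavefish, for a log2 ratio of -2.27; it was the only member past 4-fold as deposited, and it is listed through its surface fish value alone. It ranked 47 among members in the surface fish eye against 171 in the cavefish eye. SNX14, of the same subfamily, was measured at 25.1 and 9.04 RPKM (-1.38), and both were past 2-fold in each of the 4 other scalings (-2.04 to -1.98 for SNX19a and -1.13 to -1.11 for SNX14). In mammals SNX14 sits on the ER beside lipid droplets. Other nexins of that subfamily were at 14.2 and 10.1 RPKM for SNX13 and at 10.5 and 6.84 RPKM for SNX25 (-0.46 and -0.55).

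In all, 4 of 20 sorting nexin rows were past 2-fold, each of them lower (20%, against 10.2% of all genes), with a median of -0.46 (centred -0.19) and 15 rows below the median of all genes. SNX16, of early and late endosomes, was found at 12.6 and 5.67 RPKM (-1.03), and SNX21 at 7.23 and 2.99 RPKM (-1.04), the lowest cavefish value of any member. Of the 4, SNX19a and SNX21 were under 5 RPKM in the cavefish eye and are listed through the surface fish eye alone. SNX16 and SNX21 came under 2-fold in the other scalings, at -0.81 to -0.76 and -0.88 to -0.77. SNX27, which with retromer returns membrane receptors to the cell surface, was measured at 21.7 and 11.8 RPKM (-0.83). Among nexins that bend tubules with retromer, SNX1 was at 24.5 and 32.3 RPKM (0.39), and its partners SNX2 and SNX6 at 11.9 and 8.40 RPKM and at 13.4 and 8.61 RPKM (-0.45 and -0.58). These 3 rows summed to 49.7 and 49.3 RPKM. SNX12, the most abundant nexin, was found at 50.2 and 52.98 RPKM and its close relative SNX3 at 19.3 and 14.1 RPKM. SNX4, a recycling nexin, was measured at 10.2 and 13.7 RPKM (0.39).

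Retromer, the complex that retrieves cargo from endosomes, was within 2-fold throughout. VPS35, its scaffold, was at 22.3 RPKM in the eye of the surface fish and 17.7 RPKM in that of the cavefish, VPS29 at 20.5 and 17.2 RPKM, VPS26A at 10.4 and 9.71 RPKM and VPS26B-like at 5.01 and 6.33 RPKM. The median was -0.17, with VPS29 and VPS26A above 0 in the other scalings, and 1 of 4 rows lay below the median of all genes.

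ESCRT genes, which sort ubiquitin-tagged membrane proteins into multivesicular bodies, had the lowest group median, -0.74 over 8 rows (centred -0.47). VPS36, the subunit of ESCRT-II that binds ubiquitin and lipid, was found at 56.04 RPKM in the eye of the surface fish and 14.3 RPKM in that of the cavefish, for a log2 ratio of -1.90 (-1.64 to -1.60 under the other scalings). It ranked 14 among members in the surface fish eye against 54 in the cavefish eye. VPS25, also of ESCRT-II, was measured at 13.7 and 6.78 RPKM (-0.92). Of ESCRT-I, VPS37A was at 19.1 and 6.76 RPKM (-1.38; -1.13 to -1.10 under the other scalings), VPS37B at 8.60 and 5.54 RPKM and VPS37C at 14.4 and 12.9 RPKM, whereas the core subunit VPS28 was found at 29.2 and 30.96 RPKM (0.08). The ATPases that take the machinery apart, VPS4A and VPS4B, were measured at 36.8 and 19.3 RPKM and at 11.2 and 7.14 RPKM (-0.90 and -0.59). Of the 8 rows, 7 had negative log2 ratios (87.5%, against 68.8% of all genes), 6 lay below the median of all genes, and 2 were at least 2-fold lower, where 10.2% of all genes were. With 8 rows these shares rest on few genes, and VPS37C changes sign under the other scalings. Summed over the group the level was 189 and 104 RPKM, of which VPS36 alone gave more than any other row in the surface fish eye. The charged multivesicular body proteins of ESCRT-III, which the rule does not take, had 6 measured rows, all within 2-fold, with a median of -0.58.

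HOPS and CORVET tether endosomes and lysosomes, and in zebrafish loss of their subunits pales pigment cells. VPS18, of the shared core, was at 10.3 RPKM in the eye of the surface fish and 4.41 RPKM in that of the cavefish (-1.06; -0.85 to -0.79 under the other scalings), listed through its surface fish value. VPS16, of the same core, was found at 7.14 and 10.8 RPKM (0.54), on the other side. The HOPS subunits VPS39 and VPS41 were measured at 9.74 and 8.48 RPKM and at 8.68 and 6.95 RPKM, and the CORVET subunit VPS8 at 7.33 and 5.96 RPKM. The core subunits therefore lay at both ends of the group, whose median was -0.26. GARP and EARP, tethers of vesicles returning from endosomes, had 3 rows close together: VPS52 at 10.5 and 7.10 RPKM, VPS53 at 5.87 and 3.91 RPKM and VPS54 at 7.97 and 4.67 RPKM, with log2 ratios of -0.66 to -0.48. VPS53 and VPS54 are listed only through the surface fish eye, where they were higher.

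The VPS13 proteins, long bridges that move lipid between membranes, were among the most abundant members. VPS13B, which acts at the Golgi and whose loss in humans causes Cohen syndrome with retinal dystrophy, was at 90.1 RPKM in the eye of the surface fish and 58.96 RPKM in that of the cavefish (-0.60). VPS13C, of late endosomes and lipid droplets, was found at 85.95 and 53.4 RPKM (-0.68), VPS13A, of contacts between ER and mitochondria, at 51.4 and 26.6 RPKM (-0.92), and VPS13D at 5.06 and 4.37 RPKM (-0.17). The 4 genes summed to 232.5 and 143.3 RPKM, and the 3 abundant ones stayed below 0 in the other scalings, while VPS13D was above 0 there. None was past 2-fold. VPS45, a partner of syntaxins, was measured at 8.03 and 5.70 RPKM; VPS72, a chromatin protein that the rule takes for its name, was at 8.37 and 5.70 RPKM.

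**Figure D4:**
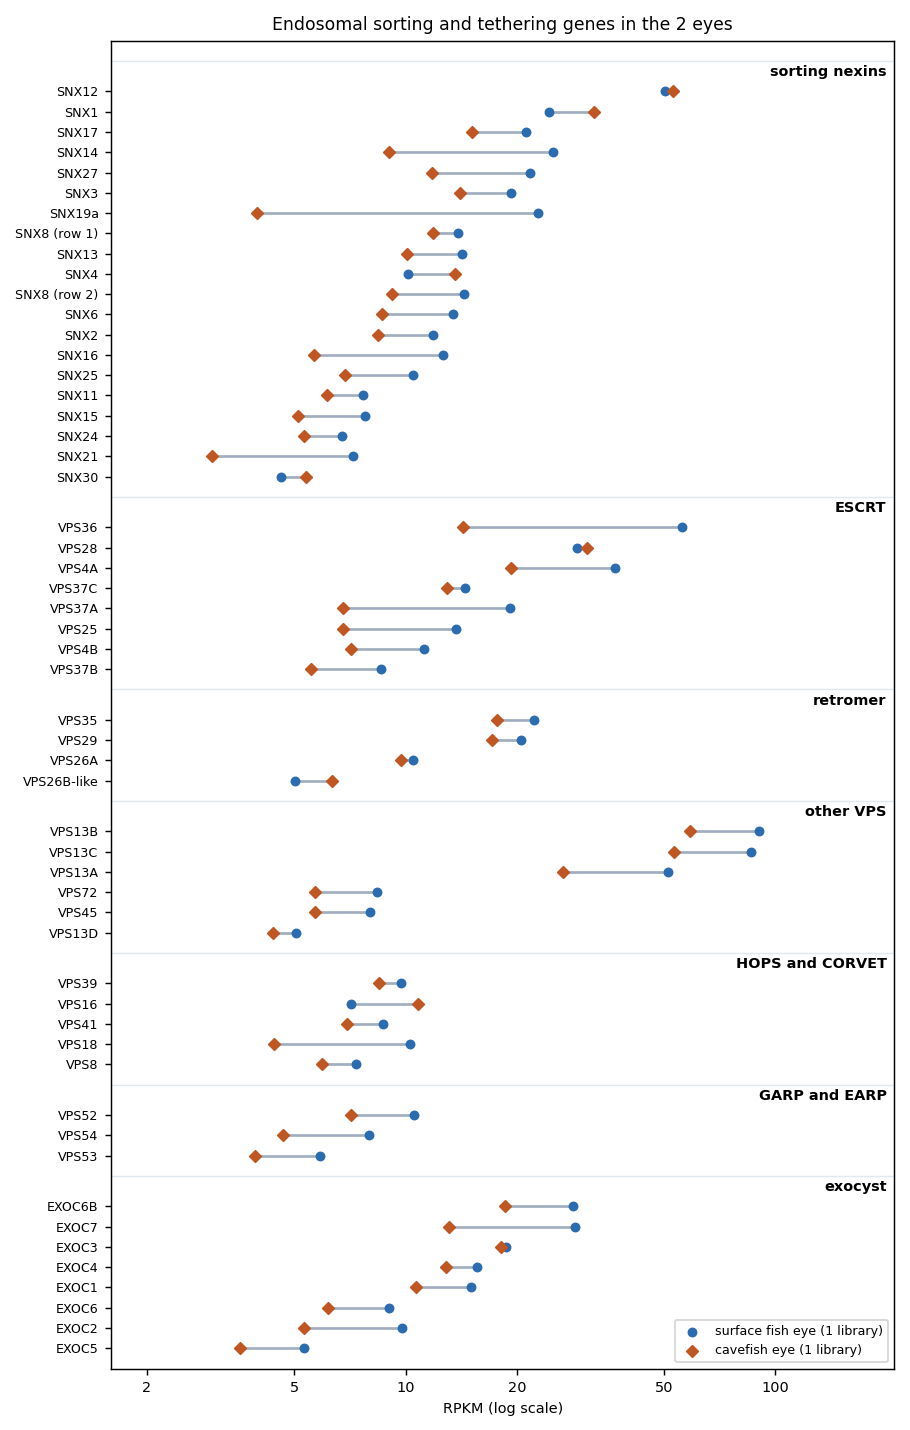
Levels in RPKM (log x axis) of sorting nexins, ESCRT, retromer, other VPS, HOPS and CORVET, GARP and EARP and exocyst genes in the surface fish eye (circles) and the cavefish eye (diamonds), 1 library each. The longest lines are those of SNX19a (22.9 and 3.96 RPKM) and VPS36 (56.0 and 14.3 RPKM), and retromer lines are short.

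Copies of a gene did not always share a direction. Over 26 pairs of copies, paralogs or rows of 1 gene name, chosen with the values known, the log2 ratios of a pair differed by 0.40 in the median and by up to 2.15, and 11 pairs had opposite signs as deposited. Of all 9585 genes 6590 lay below 0 and 2989 above, so unrelated genes also often differ in sign. How often they do was not computed, so the 11 opposite pairs are not read as a trait of copies. In the opposite pairs RAB7 and RAB7A, RAB8A and RAB8B, and RAB27A and RAB27B, both genes lay above the median of all genes. The widest pairs were RAB34 a and b, RAB11A and its like row, AP1 mu 1 and mu 2 (mu 2 minus mu 1, 1.35) and SEC23A and SEC23B (SEC23B minus SEC23A, -1.16). For RAB5A a and b the sum was 157 and 169 RPKM (0.11), and for RAB8A and RAB8B 29.2 and 31.9 RPKM (0.12). Both sums were nearly level as deposited and stood above the median of all genes. In other pairs both members were lower, as for VPS37A and VPS37B, with a log2 ratio of their sum of -1.11, and VPS4A and VPS4B, with -0.84. In the 4 pairs of rows with 1 gene name, the second row minus the first was -0.05 for SEC24B, -0.16 for SEC24A, -0.38 for SNX8 and -0.40 for SEC16A, the last of the same size as the median over all 26 pairs. The 4 IQSEC3 rows, which are not among these pairs, spread more widely, from -1.17 to -0.54. Copies share sequence, and no source used here tells how their reads were assigned, so a ratio within such a pair is uncertain.

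**Figure D5:**
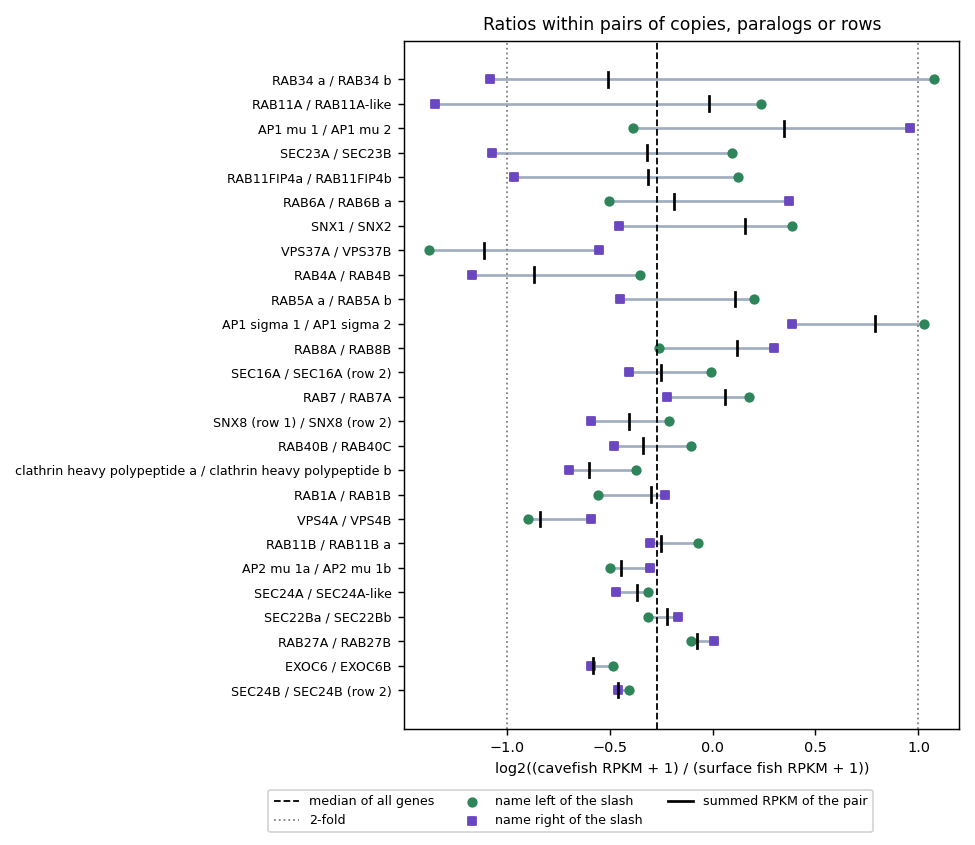
Log2 ratio of the cavefish over the surface fish eye (x axis, log2 of RPKM + 1) for 26 pairs, ordered by the difference within the pair. Circles and squares are the names left and right of the slash, black ticks the ratio of the summed RPKM, the dashed line the median of all genes (-0.27) and dotted lines 2-fold; RAB34 a and b, with 1.08 and -1.08, lie farthest apart.

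Genes of membrane traffic outside the rule were counted in 8 lists beside the members. Of 128 such genes 13 were at least 2-fold lower and 1 higher, with a median of -0.42, against 10.2% and 3.84% of all genes. ARF, ARL and SAR1 GTPases had 5 of 26 at least 2-fold lower and none higher, SNAREs and their partners 6 of 44 lower and 1 higher, and the RAB regulators of the GDI, TBC1 and DENN families none of 24. COG and golgins had 1 lower gene each, of 5 and of 10, while the 4 rows named for dynamin, 6 ESCRT-III rows and 9 p24 cargo receptors had none past 2-fold. The lists follow name patterns and can hold genes outside the family. Examples are dynamin binding protein among the dynamins and synaptosomal-associated protein 91 among the SNAREs. The lowest of all was a row named ARL3, like 1 (173 and 29.5 RPKM, -2.52). ARL3 is a GTPase that releases lipid-anchored proteins in photoreceptors and cilia. The row named for ARL3 itself was within 2-fold, at 41.5 and 23.1 RPKM (-0.82). Further ARL3 rows were at 81.1 and 35.3 RPKM (like 2, -1.18) and at 21.65 and 13.75 RPKM (variant 1, -0.62). Among RABs themselves the lowest ratio was that of RAB11A-like, -1.35. No test of these differences between lists was made.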

How the data were processed

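Gene expression was compared between 2 eye libraries, 1 per species. Per the file headers, the authors deposited RPKM for 9649 rows, each named by gene homology; per the submitters' processing notes Bowtie 0.12.2 was among the tools, its role unstated. Reference, transcript lengths and treatment of shared reads were not given in the sources used here, nor which library ran on which Illumina instrument, so platform and species cannot be told apart. RPKM summed to 684736 and 665574 in the surface fish and cavefish eye; depth is unknown. The 2 most abundant genes held 53.3% and 62.7% of these totals. Each column was assigned through the fish named in its header. Of a name on several rows (64 names) the row with the largest sum was used. Log2 ratios used a pseudocount of 1 and a threshold of 2-fold; no test was made.

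Members, groups, lists and pairs were chosen with earlier results of these data known. Members named were those past 2-fold, the 10 most abundant, the extremes of each group of 4 or more and preset pathway genes; others were named after their values were seen. The 128 comparison genes came from name patterns. The computation was tested on simulated data. Python 3.11.15, numpy 2.4.6, pandas 2.3.3, scipy 1.17.1 and matplotlib 3.10.9 were used. No sequences were printed.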

Additional observations from a re-analysis of the deposited data

How the results depend on the processing

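The 15 members at least 2-fold lower became 6 with ratios centred on their median, 6 with a trimmed mean set to 0, 6 with equal totals without the 50 most abundant genes and 6 with quantile normalization; these scalings bring the median of all genes close to 0. Under them 5.55% to 5.87% of all genes were lower. The 15 became 5 with a pseudocount of 5, 45 at a threshold of 1.5-fold and 1 at 4-fold. Of all genes 5.39%, 26.8% and 1.29% were lower there. When both values had to reach 5 RPKM, an alternative chosen after seeing the data, 9 members were lower, against 8.83% of all genes kept. The 3 higher members became 0 with a pseudocount of 5, 7 at 1.5-fold and 0 at 4-fold, where 1.80%, 9.24% and 0.61% of all genes were higher. The median log2 ratio of members, -0.35, was -0.39 with a pseudocount of 0.1, -0.27 with one of 5, -0.083 centred, -0.088 with the trimmed mean, -0.11 with equal totals, -0.11 with quantile normalization, -0.41 with a larger value of at least 10 RPKM, -0.33 with core names only, -0.35 with 20 rows of other letter case or wording added (also chosen after seeing the data) and -0.35 with both values at least 5 RPKM. The median of all genes moved too: it was -0.29 with a pseudocount of 0.1 and -0.20 with one of 5. With a larger value of at least 10 RPKM it was -0.32, and with both values at least 5 RPKM -0.24. Summing rows of 1 name or keeping every row left the values of the members as they were, since no member name is repeated. No member past 2-fold changed sign under any alternative; VPS36, SNX14, VPS37A and SEC14-like 3 stayed past 2-fold under each pseudocount and scaling, with a larger value of at least 10 RPKM and under each row choice, as did SNX19a, which the filter on both values leaves out. No paired analysis was possible because each group has 1 library.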
